A study of Arabidopsis thaliana with 4 samples.

Results

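A set of 10 genes of the vernalization and Polycomb pathway of Arabidopsis thaliana were followed in seedlings: VIN3, VRN5, VEL1, VRN1, VRN2, CLF, SWN, EMF2, FIE and LHP1. They were taken by locus identifier, and all 10 were present among the 33602 genes of the deposited tables. The question behind the series is which peptides from small open reading frames, found in the phloem, could have a part in flowering time. RNA of whole seedlings was compared between the accession Col-0 (WT) and a line overexpressing sORF1511, one such reading frame, both at 12 das. Each genotype had 2 libraries, called biological replicates in the labels, and each library came from a pool of 5 seedlings. The overexpressor is 1 line, numbered 7 in the design text, so effects of the transgene and of that line cannot be told apart, and the level of sORF1511 was not analysed here. The promoter that drives the transgene, the growth conditions and any cold treatment are not given in the labels.

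Polycomb repressive complex 2 (PRC2) places methyl groups on lysine residues of histone H3 and keeps developmental genes silent through cell division. Its plant core joins a catalytic subunit (CLF, SWN or, in the seed, MEA), a zinc finger subunit (EMF2, VRN2 or FIS2), and the WD40 proteins FIE and MSI1. During long cold, VIN3 is induced and joins its relatives VRN5 and VEL1 and a VRN2-containing PRC2 at the floral repressor gene FLC. VRN1, a DNA-binding protein, and LHP1, a chromodomain reader of the mark, are needed for the silent state to last after the cold.

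The libraries held between 13974460 and 25740234 estimated reads. WT replicate 1 stood apart, with 30.8% of its reads on chloroplast-encoded genes against at most 1.42% in the other libraries. Levels are therefore given as CPM scaled by TMM (counts per library size, after a correction for RNA composition), except where TPM is named. The 6 green-tissue transcripts used to check the seedling label, of Rubisco and light-harvesting genes, were detected in every library, at 51000 to 60900 summed CPM.

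In these seedlings 9 of the 10 genes were expressed at moderate levels and passed the filter on low counts, VIN3 was all but absent, and none of the 9 testable genes passed the test between genotypes. By the quasi-likelihood test of edgeR, adjusted by Benjamini-Hochberg over the 19474 genes tested, 0 of 9 had an adjusted p below 0.05, and 0 of 9 had an unadjusted p below 0.05. DESeq2 and limma-voom also called 0 members. Over all genes DESeq2 called 912 higher and 307 lower of 20747 with an adjusted p. Limma-voom called 0 genes in the whole series, so its 0 is not particular to the members. With 2 libraries a genotype, missing the threshold does not show equal levels. Over all genes tested by edgeR 0.149% passed, 0.139% higher and 0.0103% lower, and 21.7% had an unadjusted p below 0.05. The median log2 fold change (overexpressor over WT) was -0.09 over the 9 genes and -0.01 over all genes tested. The largest differences were those of FIE, at -0.37 ± 0.20 (SE), and SWN, at 0.21 ± 0.13 (SE). All 9 of the 95% intervals of the fold change lay within a 2-fold change in either direction, as did 69.6% of those of all genes tested. These intervals are not adjusted for the number of genes. Leaving out overexpressor replicate 2 widened that of FIE beyond it, to a lower bound of -1.23 on the log2 scale.

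**Figure D1:**
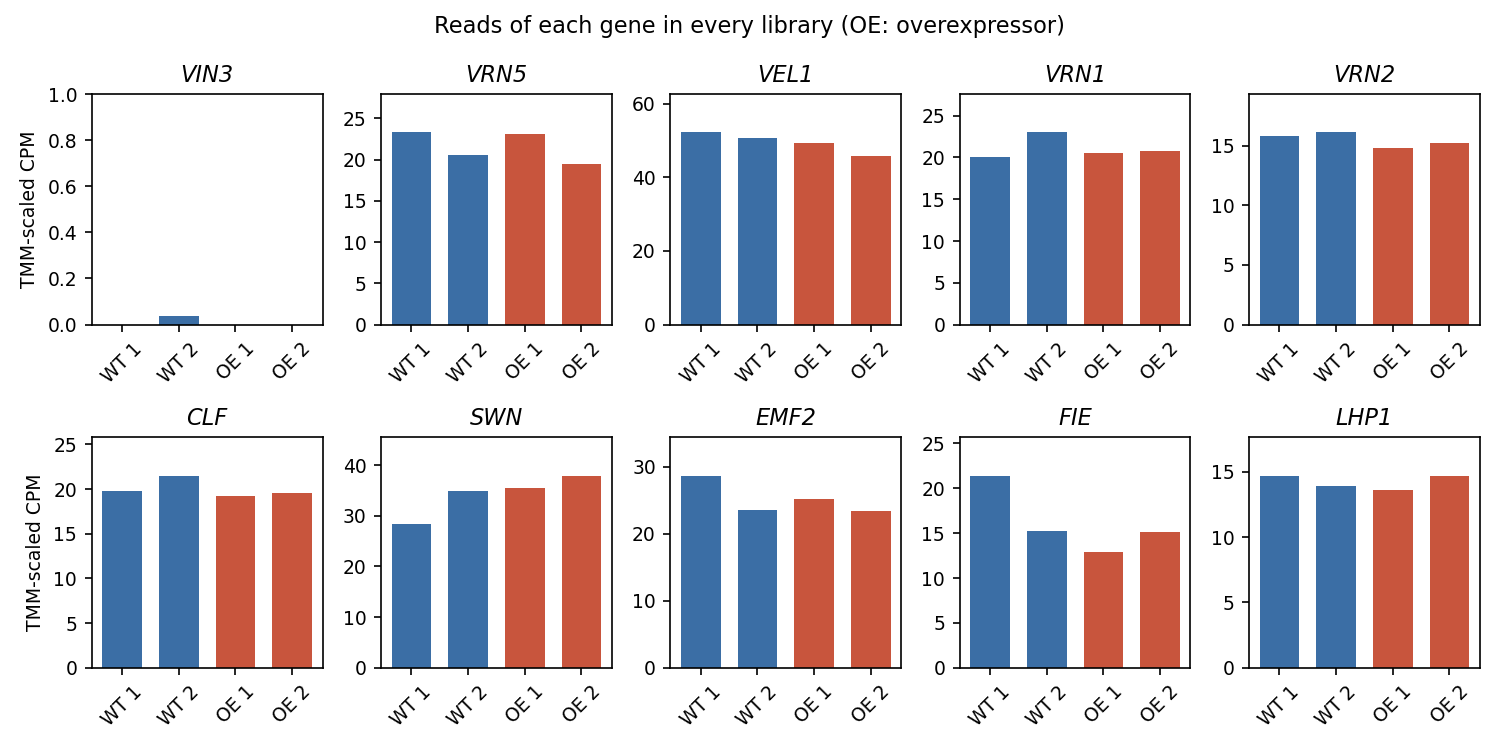
TMM-scaled CPM of each of the 10 genes (1 panel a gene, each with its own axis from 0) in WT replicates 1 and 2 (blue) and overexpressor replicates 1 and 2 (red); a bar is 1 library. FIE is highest in WT replicate 1 at 21.4 CPM, SWN is lowest there at 28.4 CPM, and VIN3 has a single read over the 4 libraries together, in WT replicate 2.

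Levels of different genes were compared per length, as CPM per kilobase of effective length. VEL1 had the highest level in each of the 4 libraries, between 18.8 and 21.3 CPM per kb, above 72.2% of the tested genes in its mean. VRN1 followed at 14.7 to 16.9 CPM per kb. The ranges of VEL1 and VRN1 did not overlap, and neither did those of VRN1 and the next gene, SWN, at 10.5 to 13.9 CPM per kb.

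SWN, VRN5, FIE, EMF2 and VRN2 formed a middle group whose neighbours in the order overlapped in range. Their means over the 4 libraries ran from 12.6 CPM per kb for SWN to 9.97 for VRN2. LHP1, at 8.20 to 8.85 CPM per kb, and CLF, at 6.82 to 7.64, stood below that group without overlap. CLF was the lowest of the 9 in every library and still above 43.6% of the tested genes in its mean. FIE moved most in this order, from place 2 in WT replicate 1 to place 7 in overexpressor replicate 1.

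**Figure D2:**
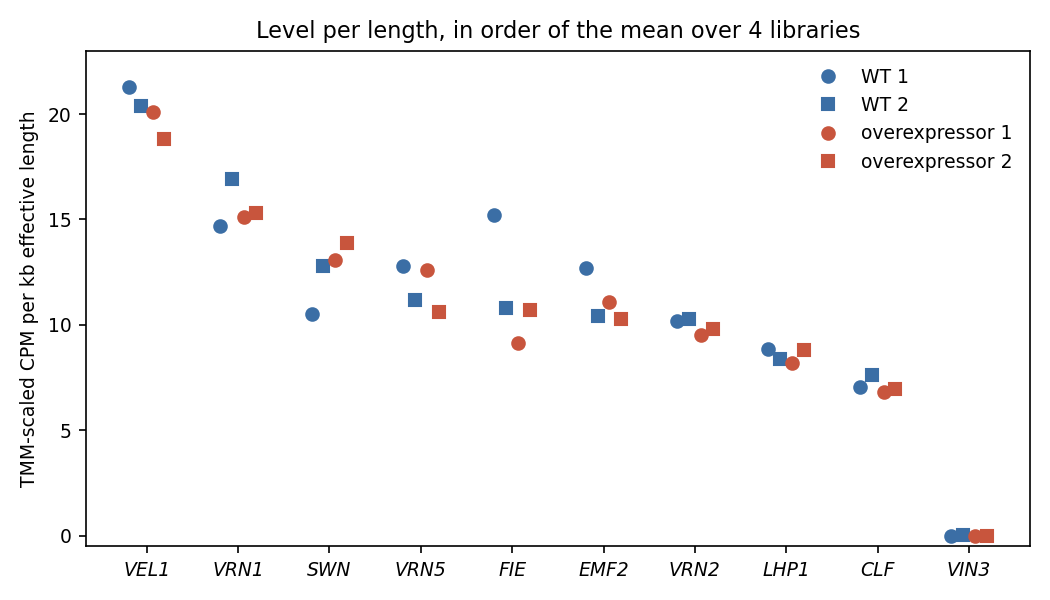
Level of each gene per length (TMM-scaled CPM per kb of effective length, linear axis), ordered by its mean over the 4 libraries; a point is 1 library, colour marks the genotype and shape the replicate number. VEL1 lies above all others, LHP1 and CLF lie below the middle group, VIN3 lies at 0, and FIE has the widest range, 9.16 to 15.2.

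VIN3 (AT5G57380), the PHD finger protein whose transcript rises in long cold, had 0 reads in WT replicate 1, 1 read in WT replicate 2, and 0 reads in both overexpressor libraries. A level of 3 reads, the smallest taken as measured, corresponds to between 0.108 and 0.268 CPM in these libraries. VIN3 was thus under that limit in both genotypes, and no fold change is given. Its relatives VEL2 and VEL3 were also near 0, with at most 2 reads and 1 read in any library.

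The other VEL proteins, which bind VIN3 and PRC2, were expressed in all libraries. VRN5 (AT3G24440) stood at 23.3 and 20.6 CPM in WT replicates 1 and 2 and at 23.1 and 19.5 CPM in overexpressor replicates 1 and 2. The genotypes overlapped, and replicate 1 was the higher one in each. The log2 fold change of VRN5 was -0.04 ± 0.14 (SE), with a 95% interval of 0.760- to 1.24-fold.

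VEL1 (AT4G30200) stood at 52.2 and 50.7 CPM in the WT pools and 49.4 and 45.8 CPM in the overexpressor. Both overexpressor libraries were below both WT libraries. The log2 fold change of VEL1 was -0.11 ± 0.09 (SE), an interval of 0.787- to 1.09-fold, with an edgeR adjusted p of 0.498. VEL1 was also the gene whose deposited length varied most, from 2585 to 2646 bases, a spread of 2.36%. Of the others, VRN2 and EMF2 varied by 0.158% and 0.0301% and the remaining 7 did not vary. The length was 2615 and 2646 bases in WT and 2607 and 2585 bases in the overexpressor, and this difference was not tested.

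Among the catalytic subunits, the SET domain methyltransferases, SWN was the more abundant transcript in every library. CLF (AT2G23380), whose loss curls leaves and releases floral homeotic genes, stood at 19.8 and 21.5 CPM in the WT pools and 19.2 and 19.6 CPM in the overexpressor. The overexpressor values were lower without overlap, with a gap smaller than the spread of the WT pools. CLF's log2 fold change was -0.09 ± 0.11 (SE), with an interval of 0.772- to 1.14-fold.

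SWN (AT4G02020), its partly redundant relative, stood at 28.4 and 34.8 CPM in the WT pools and 35.5 and 37.9 CPM in the overexpressor. It was the only one of the 9 with both overexpressor libraries above both WT libraries, and the difference between the WT pools was larger than the gap between the genotypes. SWN's log2 fold change was 0.21 ± 0.13 (SE), with an interval of 0.922- to 1.45-fold and an edgeR adjusted p of 0.383. It was 0.09 without WT replicate 1 and 0.37 without WT replicate 2. WT replicate 1, where SWN was lowest, is the library with 30.8% of its reads on chloroplast-encoded genes. The part of that share in the SWN values was not tested.

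The ratio of CLF to SWN, per length in TPM, was 0.672 and 0.597 in the WT pools and 0.523 and 0.499 in the overexpressor pools. Both overexpressor values lay below both WT values. On the log2 scale the ratio was -0.66 ± 0.121 in WT and -0.97 ± 0.0462 in the overexpressor (SD, n = 2 each), a difference of -0.31. The two-sided exact permutation test gave p = 0.333, the smallest that this test allows with 2 against 2 libraries, so that it could not pass a threshold of 0.05 by this test. SWN made up 59.8% and 62.6% of the summed TPM of the pair in WT and 65.7% and 66.7% in the overexpressor. The summed level of the pair was 17.5 and 20.4 CPM per kb in WT and 19.9 and 20.9 in the overexpressor, with overlap.

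Of the zinc finger subunits, EMF2 (AT5G51230), which prevents flowering straight after germination, stood at 28.7 and 23.6 CPM in the WT pools and 25.2 and 23.4 CPM in the overexpressor. The genotypes overlapped and the WT pools differed from each other more than the genotype means did. EMF2's log2 fold change was -0.10 ± 0.13 (SE), an interval of 0.736- to 1.18-fold. VRN2 (AT4G16845), the subunit named for its part in vernalization, had 15.8 and 16.1 CPM in the WT pools and 14.8 and 15.2 CPM in the overexpressor. It was lower in the overexpressor without overlap, at a log2 fold change of -0.09 ± 0.11 (SE), an interval of 0.771- to 1.15-fold.

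Per length, EMF2 and VRN2 were nearly equal. The ratio of EMF2 to VRN2 in TPM was 1.24 and 1.01 in WT and 1.17 and 1.05 in the overexpressor. These values interleaved, and the log2 ratio differed by -0.01 between genotypes (two-sided exact permutation test, p = 1, smallest possible 0.333). VRN5 and VEL1 kept a ratio of 0.600 and 0.551 in WT and 0.625 and 0.565 in the overexpressor, also interleaved (difference 0.05 on the log2 scale, two-sided exact permutation test, p = 0.667).

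**Figure D3:**
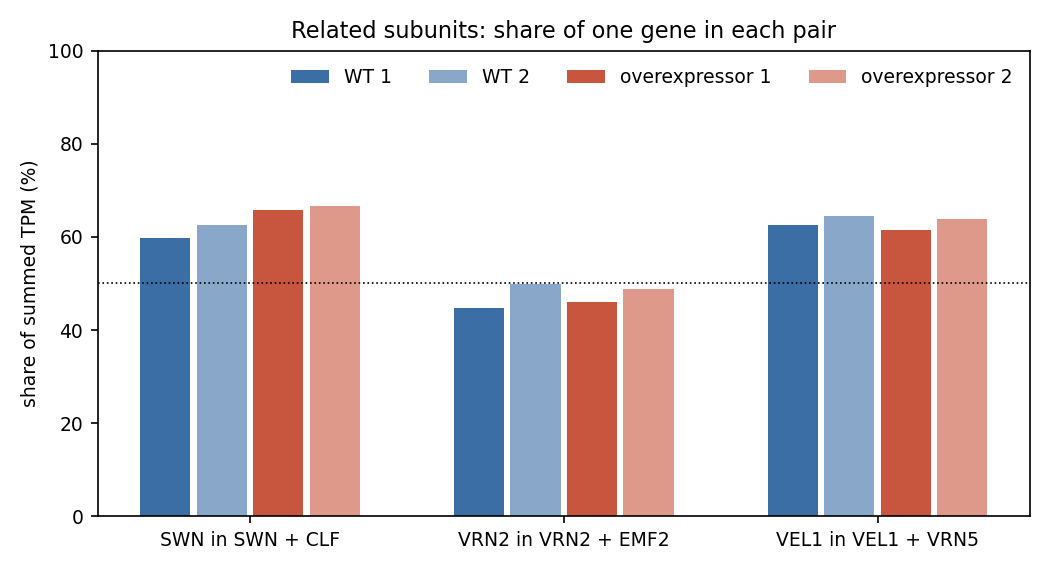
Share of SWN, VRN2 and VEL1 in the summed TPM of the pairs SWN + CLF, VRN2 + EMF2 and VEL1 + VRN5 (percent, axis from 0 to 100, dotted line at equal shares); a bar is 1 library. In the first pair both overexpressor bars, 65.7% and 66.7%, are above both WT bars, and in the other pairs the genotypes interleave.

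FIE (AT3G20740), the WD40 subunit with a single gene in this plant, stood at 21.4 and 15.2 CPM in the WT pools and 12.9 and 15.1 CPM in the overexpressor. WT replicate 1, the library with 30.8% of its reads on chloroplast-encoded genes, was high. The other libraries lay close together, so the genotypes were separated only by the small gap between WT replicate 2 and overexpressor replicate 2. The part of that chloroplast share in the FIE values was not tested. FIE's log2 fold change was -0.37 ± 0.20 (SE), with a 95% interval of -0.89 to 0.14 on the log2 scale and an edgeR adjusted p of 0.332. It was -0.10 without WT replicate 1 and -0.60 without WT replicate 2. Over the alternatives that kept all 4 libraries, the adjusted p of FIE ran from 0.323 to 0.988. Both came from edgeR, with the filter at 1 CPM or more in 2 libraries and with scaling by library size only.

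Values of dividing-cell markers, cyclins and other mitotic genes, were also lower in the overexpressor pools. In edgeR 0 of 10 passed the threshold, against 0.149% of all genes tested. At an unadjusted p below 0.05 in edgeR 8 were lower, against 9.81% of all genes tested. All 10 were detected in every library and lower in the overexpressor without overlap, against 28.4% of all genes tested. Summed levels were 163 and 156 CPM in the WT pools and 105 and 107 CPM in the overexpressor. The part of dividing cells in the FIE values was not tested. In pools of whole seedlings, fewer cells of a type and less RNA per cell cannot be told apart. MSI1 (AT5G58230), the histone-binding WD40 partner of FIE, had 32.5 and 35.2 CPM in the WT pools and 31.5 and 31.6 CPM in the overexpressor. Its log2 fold change was -0.11 ± 0.10 (SE).

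VRN1 (AT3G18990), a B3 domain protein that binds DNA with little sequence preference, had 20.0 and 23.0 CPM in the WT pools and 20.5 and 20.8 CPM in the overexpressor. The overexpressor values fell between the WT values. VRN1's log2 fold change was -0.06 ± 0.12 (SE), an interval of 0.777- to 1.18-fold. LHP1 (AT5G17690) had 14.7 and 13.9 CPM in the WT pools and 13.6 and 14.7 CPM in the overexpressor. It had the smallest difference of the 9, a log2 fold change of -0.01 ± 0.12 (SE) with an interval of 0.800- to 1.23-fold, and 97.4% of all genes tested had a larger one in size.

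Counted together, 5 of the 9 genes did not overlap between the genotypes, 1 higher and 4 lower (VEL1, VRN2, CLF and FIE). Over all genes tested 57.1% did not overlap, 28.7% higher and 28.4% lower. A total of 8 of the 9 had log2 fold changes below 0, as had 51.5% of all genes tested. With scaling by library size only, which moved the median of all genes to 0.10, the number below 0 became 1 of 9. The median of the 9 was then 0.04. Its distance from the median of all genes was -0.07 in the main fit and -0.06 with that scaling.

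**Figure D4:**
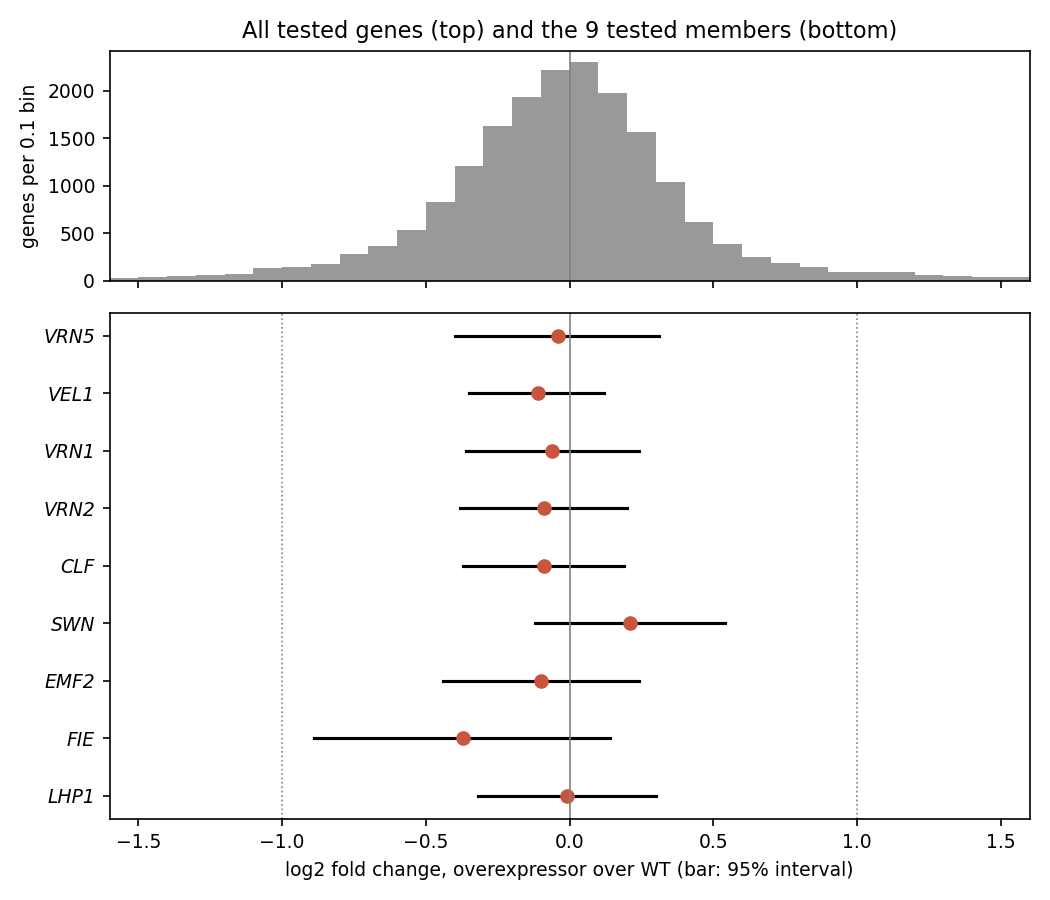
Top, number of tested genes by log2 fold change of overexpressor over WT in bins of 0.1 (the axis leaves out the more extreme genes); bottom, the log2 fold change of the 9 tested members with its 95% interval from edgeR, with dotted lines at a 2-fold change. Every interval spans 0 and ends inside the dotted lines, and that of FIE, from -0.89 to 0.14, is the widest.

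A list of 29 further genes was taken as Polycomb partners. Among them are genes of PRC2 recruitment, of the ubiquitin-writing complex PRC1 and of reading the mark. Of the 29, 23 could be tested, and 0 rose and 0 fell in edgeR and in DESeq2. Their median log2 fold change was -0.02. At an unadjusted p below 0.05 there were 2 higher and 3 lower, where 11.9% and 9.81% of all genes tested were. The genotypes did not overlap for 6 higher and 11 lower of the 23, read against 28.7% and 28.4% of all genes tested. EMF1, a plant-specific partner of PRC1 and PRC2, had 13.4 and 13.7 CPM in the WT pools and 12.3 CPM in both overexpressor libraries, a log2 fold change of -0.14 ± 0.12 (SE).

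SHL, a reader of histone marks with a bromo-adjacent homology domain, went the furthest upward among the 23, with 22.5 and 28.7 CPM in the WT pools and 35.9 and 38.1 CPM in the overexpressor. Its log2 fold change of 0.53 ± 0.14 (SE) had an edgeR adjusted p of 0.154. Over the alternatives that kept all 4 libraries, the adjusted p of SHL ran from 0.0807 with DESeq2 to 0.629 with limma-trend. Its log2 fold change was 0.72 without WT replicate 2 and 0.38 without WT replicate 1. Its close relative EBS, named here after its values were seen, had 24.5 and 20.4 CPM in the WT pools and 14.0 and 16.1 CPM in the overexpressor, the furthest downward of the 23 at -0.57 ± 0.15 (SE). The edgeR adjusted p of EBS was 0.146, and 0.871 with scaling by library size only. Its log2 fold change was -0.70 without WT replicate 2 and -0.42 without WT replicate 1. The seed-specific subunits were close to absent. FIS2 had 0 reads in every library, and MEA had 0 reads in both WT libraries and 2 and 5 reads in the overexpressor libraries.

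Genes that oppose Polycomb silencing, 13 in all and all tested, include demethylases of the mark, trithorax methyltransferases, other trithorax-group factors and chromatin remodellers. In edgeR 0 rose and 0 fell. At an unadjusted p below 0.05 in edgeR there were 1 higher and 2 lower, where 11.9% and 9.81% of all genes tested were. DESeq2 called 0 of the 13, and 912 higher and 307 lower over all genes. The 13 had a median log2 fold change of -0.15, and 11 of 13 values were below 0, against 51.5% of all genes tested. The genotypes did not overlap for 9 that were lower and 1 that was higher, read against 28.4% and 28.7% of all genes tested. With scaling by library size only, where the median of all genes was 0.10, the median of these 13 was -0.03 and 8 were below 0. The dividing-cell markers given above were lower in the same libraries, and their part was not tested. The one higher without overlap was ULT2, a trithorax-group factor named after its values were seen. It had 0 and 13 reads in WT and 30 and 49 reads in the overexpressor. Its log2 fold change was 2.45 ± 0.81 (SE), at an edgeR adjusted p of 0.187. With scaling by library size only it passed, at an edgeR adjusted p of 0.0346, where 570 genes rose and 239 fell over all genes. Over the alternatives that kept all 4 libraries, its adjusted p reached 0.193, in edgeR with the replicate block. Without WT replicate 2 the remaining WT library had 0 reads, so no fold is given. Without WT replicate 1 the log2 fold change of ULT2 was 1.84.

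Textbook targets of Polycomb silencing gave a mixed picture. Of 24, 13 could be tested, and 0 rose and 0 fell in edgeR, with 7 above and 6 below 0 and a median of 0.05. At an unadjusted p below 0.05 in edgeR there were 1 higher and 3 lower, where 11.9% and 9.81% of all genes tested were. DESeq2 called 1 target, FLC, and 912 higher and 307 lower over all genes. The other 11 of the 24, among them the floral gene AG, the stem cell gene WUS and the embryo regulators LEC1, LEC2 and FUS3, had at most 8 reads in any library. They were near silent in both genotypes.

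The genotypes did not overlap for 4 targets that were higher and 4 that were lower of the 13, where 28.7% and 28.4% of all genes tested were. FLC was among the lower ones, at 12.6 and 14.7 CPM in the WT pools and 6.09 and 4.16 CPM in the overexpressor. Its log2 fold change was -1.43 ± 0.23 (SE), at an edgeR adjusted p of 0.0914. It passed with DESeq2, at an adjusted p of 0.000321, with scaling by library size only and with no low-count filter. Each of these alternatives also called more genes over the whole series than the main fit. Over the alternatives that kept all 4 libraries, the adjusted p of FLC ran from 0.000321 with DESeq2 to 0.1 with limma-trend. Leaving out 1 library moved its log2 fold change between -1.71 and -1.17. The related repressors MAF4 and MAF5 had log2 fold changes of -1.09 ± 0.29 and -0.98 ± 0.18 (SE), at edgeR adjusted p of 0.152 and 0.0976. Leaving out 1 library moved MAF4 between -1.41 and -0.73 and MAF5 between -1.02 and -0.92. FT, the florigen gene that FLC represses, had 1.25 and 1.19 CPM in the WT pools and 1.14 and 0.985 CPM in the overexpressor. These values rest on 14 and 33 reads in WT and 22 and 27 reads in the overexpressor. The log2 fold change of FT was -0.20 ± 0.33 (SE), at an edgeR adjusted p of 0.752.

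The summed level of 8 root markers was lower in the overexpressor pools too. It was 7.51 and 27.8 CPM in the WT pools and 1.09 and 3.46 CPM in the overexpressor. Of the 8, 3 could be tested, and 0 passed the threshold in edgeR. All 3 had log2 fold changes below 0, against 51.5% of all genes tested. The genotypes did not overlap for 2 of the 3, both lower, against 28.4% of all genes tested. CASP5 was at 0 in all libraries except WT replicate 2. The part of root tissue in the FLC values was not tested.

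Among targets with a mean of at least 1 CPM, the highest fold changes belonged to STM and SEP1. STM, the homeodomain factor that keeps the shoot meristem undetermined, had 3.40 and 3.36 CPM in the WT pools and 5.83 and 5.36 CPM in the overexpressor. Its log2 fold change was 0.72 ± 0.19 (SE), at an edgeR adjusted p of 0.151. SEP1, a floral organ MADS-box gene, had 1.07 and 1.12 CPM in the WT pools and 1.77 and 1.57 CPM in the overexpressor, at 0.59 ± 0.31 (SE) and an edgeR adjusted p of 0.327.

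**Figure D5:**
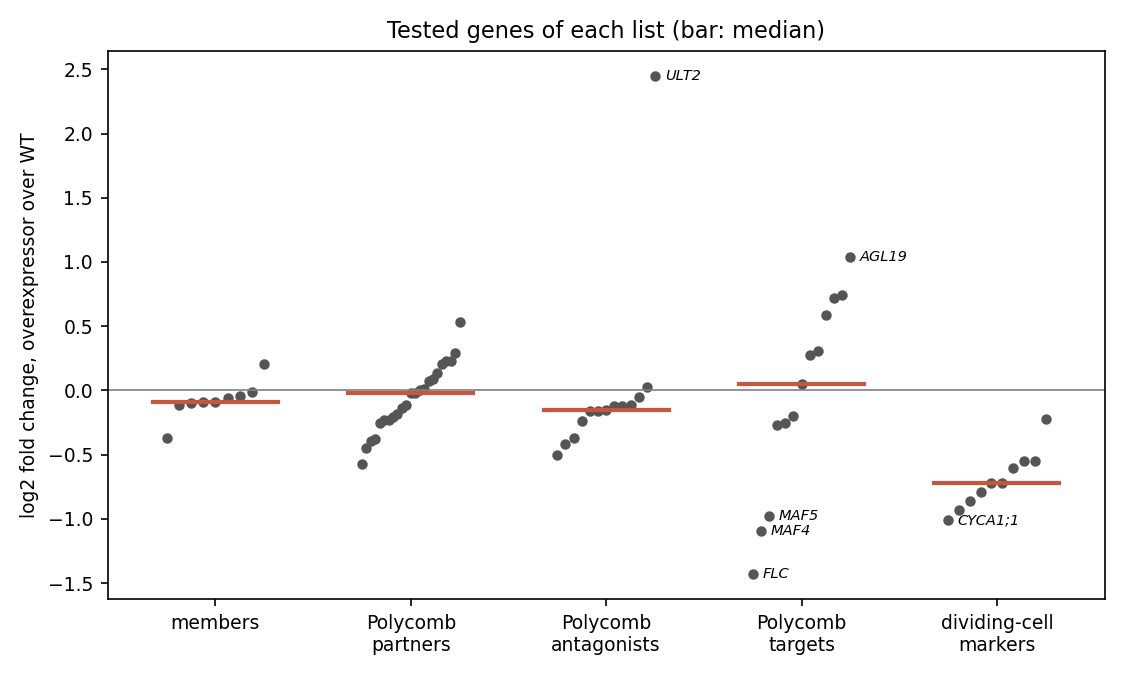
Log2 fold change of overexpressor over WT for each tested gene of the 10 members (9 tested), 23 Polycomb partners, 13 antagonists, 13 targets and 10 dividing-cell markers; a point is 1 gene and a bar the median of its list. The members lie between -0.37 and 0.21 around a median of -0.09, and the dividing-cell markers all lie below 0. The targets spread from -1.43 (FLC) to 1.04 (AGL19, labelled for its size after its values were seen). The median SE was 0.12 over the tested members and 0.31 over the tested targets. AGL19 had 3 and 11 reads in WT and 10 and 25 reads in the overexpressor, with an SE of 0.53.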

How the data were processed

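Stranded, poly(A)-enriched libraries from 200 ng of RNA were sequenced, per the labels' protocols. For each library the authors deposited a gene table of lengths, TPM and estimated counts, per the file headers. The quantifier, the build and the annotation were not given in the sources used here, so no coordinates or sequences are printed; the submitters' processing notes name DESeq2. Ratios between genes were taken from the deposited TPM, which the file headers place beside effective length. The estimated counts, 96.9% to 97.3% of them whole within 0.001, were rounded. Genes passing filterByExpr (minimum count 10, minimum total 15) were scaled by TMM and tested with glmQLFTest of edgeR 4.0.16 under R 4.3.3, with Benjamini-Hochberg adjustment over 19474 genes. SE is the unshrunk coefficient divided by the square root of F. The members had between 164 (LHP1) and 1402 (VEL1) reads per library, VIN3 aside. PCR copies cannot be told apart, so a limit of 3 reads covers counting error only.

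Gene names were matched by locus to the TAIR10.1 gene table (32835 of 33602). How reads of close paralogs were counted is not described. Members and lists were chosen with earlier results of these data known. The genes named are the 10 members, genes past the threshold, the 3 highest and 3 lowest fold changes over the other lists at a mean of at least 1 CPM, and FLC, MAF5, FT, MSI1, EMF1, MEA and FIS2. Genes under the low-count filter are named by their reads, the marker CASP5 for its 0 reads, and EBS, ULT2 and AGL19 after their values were seen. The tests were tested on simulated data first. Alternatives included DESeq2 1.42.0, limma 3.58.1, other scalings and filters, and each library left out.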

Additional observations from a re-analysis of the deposited data

How the results depend on the processing

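Under all 14 alternatives, 0 of the members tested rose and 0 fell; 9 were tested in each, and VIN3 entered only DESeq2 and the fit with no low-count filter. The replicate numbers share no stated batch (correlation of deviations 0.0581), and with the replicate block 0 members passed while 329 genes rose and 43 fell over all genes, against 27 and 2. Those totals were 570 and 239 with scaling by library size only, 912 and 307 with DESeq2, 0 and 0 with limma-voom (4081 at an unadjusted p below 0.05), 305 and 57 with no low-count filter, 65 and 10 at 1 CPM or more in 2 libraries, 250 and 24 with limma-trend on log2(TPM + 1), and 163 and 21 without organelle genes. Leaving out 1 library gave 0 (without overexpressor replicate 2) to 1189 (without WT replicate 2) higher and 0 to 1014 lower. The cause was not tested. In the lists, scaling by library size only added 1 antagonist (ULT2) higher and 1 target (FLC) lower, DESeq2 and no low-count filter each 1 target (FLC) lower, and leaving out 1 library 0 to 1 partners higher, 0 to 1 lower, 0 to 1 antagonists higher and 0 to 2 targets lower.

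Differences close to 0 changed sign. With scaling by library size only the log2 fold change was 0.09 for VRN5, 0.01 for VEL1, 0.05 for VRN1, 0.03 for VRN2, 0.02 for CLF, 0.04 for EMF2, 0.11 for LHP1 and 0.01 for MSI1; with limma-trend 0.02 for VRN5, 0.01 for VRN1 and 0.05 for LHP1; with limma-voom and with no low-count filter 0.00 for LHP1. Leaving out a library moved VRN5 between -0.16 and 0.08, VRN1 between -0.14 and 0.05, EMF2 between -0.24 and 0.06 and LHP1 between -0.06 and 0.05. The difference in the log2 ratio ran from -0.16 to 0.14 for EMF2 to VRN2 and from -0.03 to 0.12 for VRN5 to VEL1 when 1 library was left out, and from -0.40 to -0.23 for CLF to SWN. FIE and SWN kept their directions, at -0.60 to -0.10 and 0.09 to 0.37. A genotype left with 1 library was assumed to have the spread of the other. The intervals given for single members are unadjusted, so they do not give the size of change that the adjusted test would call.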
